A study of Mus musculus with 2 samples.

Results

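The genes described here are 8 genes whose transcripts mark mouse regulatory T cells beside Foxp3, namely Nrp1, Izumo1r, Capg, Gpr83, Fgl2, Plagl1, Penk and Hopx. They were chosen by symbol from 55536 genes of the GENCODE M21 annotation, and all 8 were found, with 54 annotated transcripts between them. Polyadenylated RNA was taken from the primary cells that the labels call inflammation-experienced regulatory T-cells, traced there to activated regulatory T cells of male mice, 7 weeks old. The sources used here give no genotype, strain or inducing treatment. There was a single condition and 1 biological replicate, sequenced as technical replicates 1 and 2 (library 1 and library 2), so levels are given with the SD between 2 libraries of 1 biosample and say nothing of the spread between animals.

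Regulatory T cells, a CD4 lineage, hold immune responses in check, and their identity rests on the transcription factor Foxp3. Around Foxp3 lies a wider set of transcripts that are higher in regulatory than in conventional CD4 T cells of the mouse. Some of these encode surface receptors (Nrp1, Izumo1r, Gpr83), some encode secreted products (Fgl2, Penk), and others encode an actin-binding protein (Capg) or nuclear proteins (Plagl1, Hopx). Several of them are also transcribed outside this lineage, in follicular helper T cells, myeloid cells, endothelium or neurons.

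All 8 are protein-coding genes, placed here on mm10. Of the receptors, Nrp1 (ENSMUSG00000025810.9) lies on chromosome 8, 128358604 to 128503363, plus strand. Close together lie Gpr83 (ENSMUSG00000031932.14) on chromosome 9, 14860210 to 14870789, plus strand, and Izumo1r (ENSMUSG00000031933.17) on chromosome 9, 14885814 to 14903949, minus strand. Of the genes for secreted products, Penk (ENSMUSG00000045573.9) lies on chromosome 4, 4133531 to 4138819, minus strand, and Fgl2 (ENSMUSG00000039899.5) lies on chromosome 5, 21372642 to 21378374, plus strand. Capg (ENSMUSG00000056737.14) lies on chromosome 6, 72544391 to 72562983, plus strand. Hopx (ENSMUSG00000059325.14) lies on chromosome 5, 77086988 to 77115121, minus strand, and Plagl1 (ENSMUSG00000019817.18) lies on chromosome 10, 13060504 to 13131694, plus strand.

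Expected counts over GENCODE genes summed to 26593267 in library 1 and 22036331 in library 2. Foxp3 stood at 87.3 TPM in library 1 and 87.4 TPM in library 2, Cd4 at 484 and 490 TPM, and Cd3e, a chain of the T cell receptor complex, at 1122 and 1046 TPM. TPM, a length-normalised abundance, divides reads by transcript length and so allows levels of different genes to be compared. The libraries differed in the summed levels of marker genes of other cell types. Erythroid markers summed to 8494 TPM in library 1 and 94.7 TPM in library 2 (6 genes), follicular T cell markers to 440 and 178 TPM (8 genes), and B cell markers to 849 and 759 TPM (7 genes). Macrophage markers summed to 32.9 TPM in library 1 and 71.0 TPM in library 2 (8 genes), and markers of NK or innate lymphoid cells to 192 and 314 TPM (7 genes).

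All 8 genes were detected, which required TPM to reach 1 in each library, and their levels spanned the range from the top of the transcriptome to the edge of detection. The order by mean TPM was Izumo1r, Capg, Nrp1, Hopx, Penk, Gpr83, Fgl2 and Plagl1. The values of neighbours in this order did not overlap between the libraries, except for Hopx and Penk, whose order was opposite in the 2 libraries. Among 13718 detected genes, Izumo1r stood at the 97.6 percentile of mean TPM, Capg at 96.5, Nrp1 at 92.9, Hopx at 90.4 and Penk at 90.3. Gpr83 stood at the 60.9 percentile, Fgl2 at 55.1 and Plagl1 at 9.88.

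**Figure D1:**
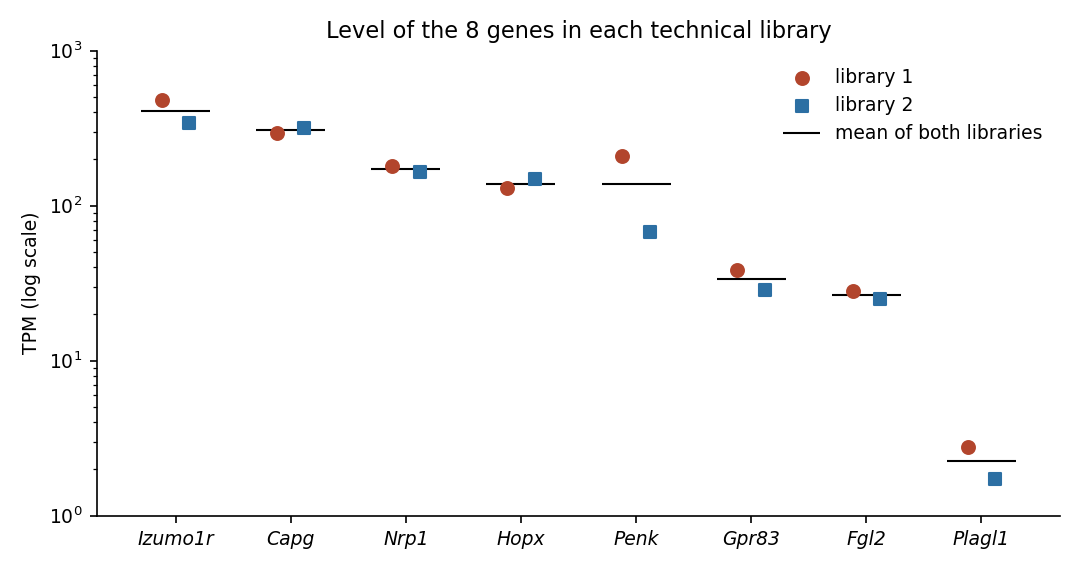
Level of each gene in TPM on a log axis, with a circle for library 1, a square for library 2 and a bar for their mean. Izumo1r was highest with a mean of 411 TPM, Plagl1 was lowest with 2.26 TPM, and Penk had the widest gap between the libraries relative to its level among genes above 10 TPM.

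The receptors covered more than a 10-fold range of levels. Izumo1r (folate receptor 4, also called Juno) is a membrane-anchored relative of the folate receptors that serves on the egg as the receptor for sperm Izumo1 and marks regulatory T cells, follicular helper T cells and anergic CD4 cells. It had 481 TPM in library 1 and 342 TPM in library 2, a mean of 411 ± 98.4 TPM (SD, n = 2). Nrp1 (neuropilin-1), a coreceptor for semaphorins and vascular endothelial growth factor that is high on thymus-derived regulatory T cells of the mouse, had 181 TPM in library 1 and 165 TPM in library 2, a mean of 173 ± 11.7 TPM. Gpr83 is a G protein-coupled receptor known for induction by glucocorticoids and for its expression in regulatory T cells. It had 38.4 TPM in library 1 and 28.6 TPM in library 2, a mean of 33.5 ± 6.97 TPM. All 3 receptors were higher in library 1, Nrp1 by the smallest margin.

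The secreted products differed in how stable they were between the libraries. Penk (proenkephalin), the precursor of the enkephalin opioid peptides, had 208 TPM in library 1 and 67.8 TPM in library 2, a mean of 138 ± 99.1 TPM. Fgl2, a fibrinogen-like protein released by regulatory T cells that binds inhibitory Fc receptors and also acts as a prothrombinase, had 28.0 TPM in library 1 and 25.1 TPM in library 2, a mean of 26.6 ± 2.07 TPM. The SD of Penk was thus most of its mean, while that of Fgl2 was a small part of it.

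Capg, a gelsolin relative that caps the growing ends of actin filaments, had 294 TPM in library 1 and 319 TPM in library 2, a mean of 307 ± 17.4 TPM. Hopx, a small homeodomain protein that does not bind DNA itself and is needed for the function of induced regulatory T cells in mice, had 130 TPM in library 1 and 148 TPM in library 2, a mean of 139 ± 12.9 TPM. Both were slightly lower in library 1 by this scaling. Plagl1 (Zac1), an imprinted zinc finger factor, had 2.79 TPM in library 1 and 1.73 TPM in library 2, a mean of 2.26 ± 0.750 TPM.

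The reads behind these levels were assigned to the genes with little ambiguity. The authors' posterior SD of the count was 0 in both libraries for Izumo1r, Capg, Gpr83, Fgl2 and Plagl1, and was at most 4.26 counts for Nrp1, 3.68 for Hopx and 1.28 for Penk. Their credibility intervals belong to the posterior mean TPM within a library and not to the TPM given above. The level of these intervals is not stated. For Plagl1 the intervals of the 2 libraries overlapped, at 4.63 to 7.74 TPM in library 1 and 3.47 to 7.18 TPM in library 2. For Penk the posterior mean was 190 TPM in library 1 (interval 184 to 197) and 61.0 TPM in library 2 (57.2 to 64.9). Its TPM of 208 and 67.8 lay above these intervals.

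Counts were then compared between the libraries with a 2-sided exact binomial test over 24253 genes with at least 10 counts, adjusted by the Benjamini-Hochberg method. This test compares these 2 libraries and not conditions, and its intervals cover counting error only. By this test 70.3% of all genes were called, 23.9% higher in library 1 and 46.4% higher in library 2. Of the 7560 genes with at least 1000 counts, 37.6% were called higher in library 1 and 35.0% higher in library 2. That is 72.6% of these genes in all, so that a call by itself is common at this depth. All 8 genes were called, 6 higher in library 1 (Plagl1, Penk, Izumo1r, Gpr83, Fgl2 and Nrp1) and 2 higher in library 2 (Hopx and Capg). Their median log2 ratio of library 1 over library 2 was 0.32, beside -0.23 over all genes tested and 0.01 over genes with at least 1000 counts. In bulk RNA, fewer cells of a type and less RNA per cell cannot be told apart.

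Plagl1 differed 13.4-fold, with 186 counts in library 1 and 11 in library 2 (log2 ratio 3.75, 95% interval 2.94 to 4.84, adjusted p = 5.47e-34, exact binomial test). Penk differed 3.07-fold, with 4420 counts in library 1 and 1192 in library 2 (log2 ratio 1.62, interval 1.53 to 1.71, adjusted p = 6.31e-307, exact binomial test). Of the genes with at least 1000 counts, 0.251% had a log2 ratio as high as that of Penk. In the plot of all genes Penk lies apart from genes of like level, while Plagl1 lies within the wide spread of genes at its low level.

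Izumo1r had 9567 counts in library 1 and 5637 in library 2 (log2 ratio 0.49, interval 0.44 to 0.54). Gpr83 had 2005 counts in library 1 and 1206 in library 2 (log2 ratio 0.46, interval 0.36 to 0.57). Ratios at least this high were found for 6.38% of genes with at least 1000 counts in the case of Izumo1r and 7.47% in the case of Gpr83. The 2 genes are neighbours on chromosome 9 and face each other across 15024 bases that hold no other annotated gene.

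The remaining 4 genes differed by little. The log2 ratio was 0.18 for Fgl2 (1739 and 1273 counts), 0.15 for Nrp1 (10060 and 7515 counts), -0.08 for Capg (5739 and 5012 counts) and -0.17 for Hopx (2306 and 2152 counts), with counts of library 1 given before those of library 2. Among genes with at least 1000 counts, 53.2% differed at least as much as Fgl2 in either direction, 60.1% as Nrp1, 78.3% as Capg and 54.4% as Hopx. Scaling decided the direction of Capg, whose log2 ratio was 0.03 with TMM factors and 0.07 with DESeq2 size factors, and the call of Hopx, which had -0.06 and -0.03. These factors moved the ratio of every gene by 0.11 (TMM) or 0.14 (DESeq2) toward library 1. With TMM factors 6 of the 8 were called toward library 1 and 0 toward library 2, against 30.1% and 40.5% of all genes. With DESeq2 size factors 7 were called toward library 1 and 0 toward library 2, against 32.1% and 39.0% of all genes.

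**Figure D2:**
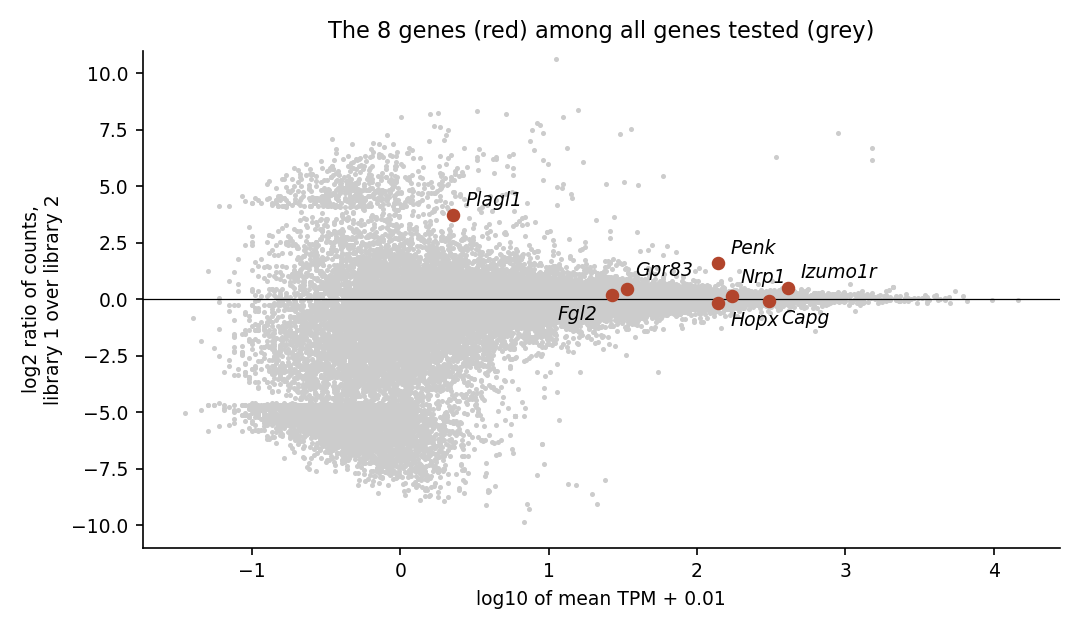
Log2 ratio of counts, library 1 over library 2, against log10 of mean TPM + 0.01 for all genes tested (grey) and the 8 genes (red). Penk, at 1.62, stands above most grey points at its level, Plagl1, at 3.75, lies among the scattered points at low TPM, and Capg at -0.08 and Nrp1 at 0.15 lie within it.

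The second way of counting in the deposit gave the same picture for part of the genes. The small tables hold whole-number counts from a genome alignment with the older GENCODE M4 annotation, 7911181 in library 1 and 6972139 in library 2. In them 54.3% of 14432 genes tested were called, 22.1% higher in library 1 and 32.2% higher in library 2, and 4 of the 8 genes were called. Penk had 1396 counts in library 1 and 671 in library 2 (log2 ratio 0.87, interval 0.74 to 1.01), Gpr83 had 899 and 599 (0.40, 0.25 to 0.56), and Plagl1 had 79 and 1 (5.55, interval 3.60 to 11.44). Capg was called higher in library 2 there, with 1827 and 1741 counts (-0.11, -0.21 to -0.02).

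Izumo1r lost its difference in the small tables, with 1902 counts in library 1 and 1680 in library 2 (log2 ratio -0.0033, interval -0.10 to 0.09, adjusted p = 0.971, exact binomial test). Its small-table count was 19.9% of its large-table count in library 1 and 29.8% in library 2, while over all genes the small tables held 29.7% and 31.6% of the large-table total. For Penk these shares were 31.6% in library 1 and 56.3% in library 2. For Hopx they were low in both libraries, at 12.4% and 13.4%. Nrp1, Hopx and Fgl2 kept their direction but were not called (adjusted p = 0.207, 0.160 and 0.267, exact binomial test).

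**Figure D3:**
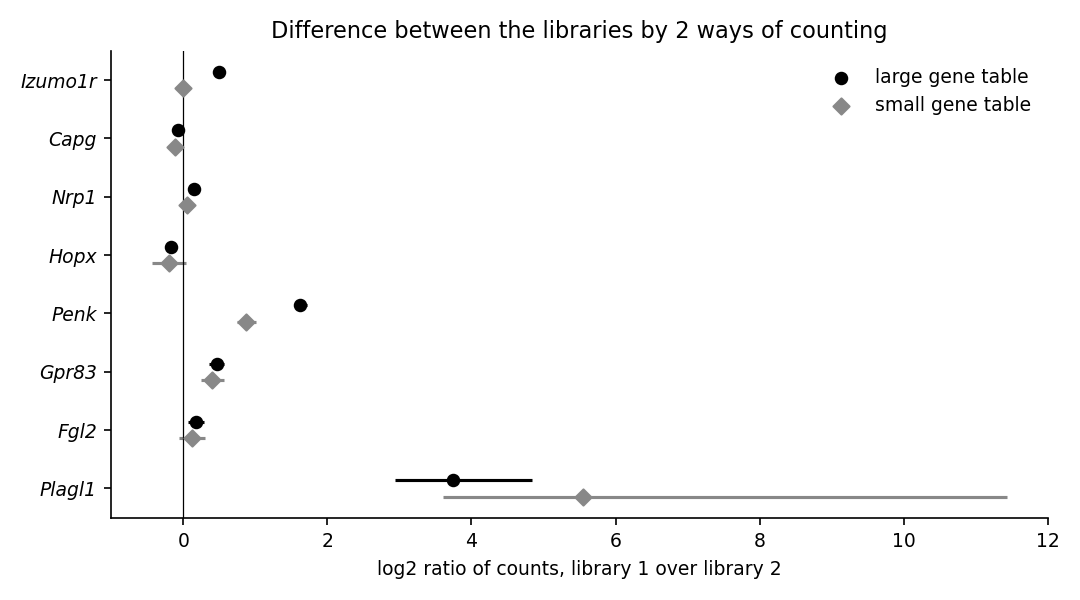
Log2 ratio of counts, library 1 over library 2, for each gene in the large table (circles) and the small table (diamonds), with 95% counting intervals as lines. Gpr83 and Plagl1 were above 0 in both, Penk was above 0 in both but smaller in the small table, and Izumo1r was above 0 only in the large one.

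Most markers of follicular T cells were higher in library 1, as Penk was in both ways of counting and Izumo1r in the large tables only. Of 8 follicular markers, 7 were called higher in library 1, Il4 was called higher in library 2, and the list's median log2 ratio was 2.07. Pdcd1, the checkpoint receptor, had 148 TPM in library 1 and 57.1 TPM in library 2, Angptl2 had 83.1 and 15.9 TPM, and Il4 had 62.6 and 81.7 TPM. No marker of this list was at 0 in either library, and its summed level was 440 TPM in library 1 and 178 TPM in library 2. By small-table counts, 7 of the 8 were again called higher in library 1, with a median of 2.00. The part of these cells in the ratios of Penk and Izumo1r was not tested.

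Myeloid cells and endothelium can transcribe members of the set. Most macrophage and endothelial markers were called higher in library 2, while dendritic cell markers were mixed in direction. Of 8 macrophage markers, 6 were called higher in library 2, while Lyz2 was higher in library 1, with 23.8 and 3.72 TPM. C1qa had 3.47 TPM in library 1 and 15.4 TPM in library 2, C1qb had 1.10 and 17.4 TPM, and Vsig4 had 0 counts in both libraries. Capg and Fgl2 are abundant in macrophages, and their ratios were -0.08 and 0.18. Of 8 dendritic cell markers, 3 were called toward library 1 and 2 toward library 2, with a median log2 ratio of 0.39. By small-table counts 3 were called toward library 1 and 1 toward library 2, with a median of 2.27. There Xcr1 had 59 counts in library 1 and 4 in library 2, Zbtb46 had 57 and 10, and Flt3, called toward library 2 in the large table, had 48 and 3 and was called toward library 1. In the large table the 8 markers summed to 8.23 TPM in library 1 and 8.53 TPM in library 2, led by Xcr1 (2.41 and 2.24 TPM), Zbtb46 (2.80 and 1.74 TPM) and Flt3 (1.00 and 1.44 TPM). Itgax had 0 counts in library 1 and 2 in library 2, and Clec9a had 0 and 1. Endothelial markers summed to 83.3 TPM in library 1 and 81.1 TPM in library 2, nearly all of it Pecam1 (83.2 and 76.4 TPM), which T cells transcribe too. Kdr had 0 and 114 counts and Emcn 1 and 46.

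Erythroid and B cell markers were higher in library 1, as Plagl1 and Penk were. All 6 erythroid markers were called higher there, led by Hba-a2 (2993 TPM in library 1 and 29.3 TPM in library 2), Hbb-bs (2971 and 44.6 TPM) and Hba-a1 (1787 and 10.9 TPM), close copies whose reads are hard to split. The small tables gave smaller differences, with 96 and 17 counts for Hba-a2, 190 and 27 for Hbb-bs and 99 and 29 for Hba-a1, and the list's median log2 ratio was 3.16 there, against 7.01 in the large table. Of 7 B cell markers, 6 were called higher in library 1, with Ighm at 447 and 436 TPM, Igkc at 247 and 211 TPM and Cd79b at 65.2 and 42.8 TPM, but by small-table counts Ighm was higher in library 2 (log2 ratio -0.09). Both CD8 T cell markers were higher in library 1, Cd8b1 at 24.2 and 13.1 TPM and Cd8a at 2.73 and 0.370 TPM. Of 7 markers of NK or innate lymphoid cells, 4 were called toward library 2, with Nkg7 at 153 TPM in library 1 and 233 TPM in library 2, Klrk1 at 32.1 and 72.2 TPM and Klrb1c, not called, at 4.26 and 3.75 TPM. Klra8 had 0 counts in both. The part of any of these cells in the ratios of the 8 genes was not tested.

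Transcript tables show which products of each gene the reads came from. Of the 7 genes with more than 1 transcript, 6 had the same leading transcript in both libraries, as did 81.3% of 9954 detected protein-coding genes with more than 1 transcript. Izumo1r-201 took 87.8% of the gene's TPM in library 1 and 90.5% in library 2, Capg-201 took 93.3% and 92.3%, and Penk-201 took 83.7% and 85.8%. Hopx-202 took 96.0% and 94.2%. Gpr83 was shared by 2 coding transcripts, 1 of 2937 bases with 63.5% and 66.9% and 1 of 3586 bases with 33.5% and 31.8%. Fgl2 has 1 annotated transcript.

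A sizeable share of Nrp1 lay outside its coding transcript in both libraries. The coding transcript of Nrp1 (chromosome 8, 128359284 to 128503363, plus strand), took 71.2% of TPM in library 1 and 74.3% in library 2. The other 3 annotated transcripts retain introns and summed to 28.8% in library 1 and 25.7% in library 2, or 52.2 and 42.5 TPM. Most of that was a transcript that ends at 128365420, near the start of the gene, with 36.3 TPM in library 1 and 30.6 TPM in library 2. Among 6636 detected protein-coding genes that have a retained-intron transcript, Nrp1 stood at the 76.0 percentile of that share in library 1 and the 67.8 percentile in library 2. Capg had 2.80% and 4.93% in such transcripts and Gpr83 had 2.94% and 1.33%.

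**Figure D4:**
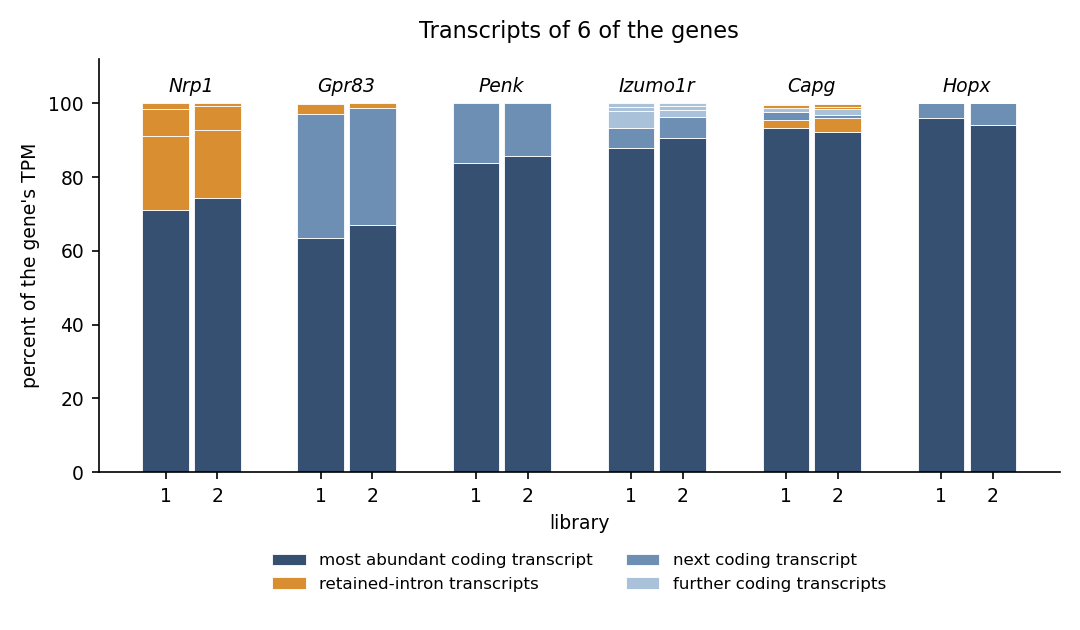
Percent of the gene's TPM in each transcript for 6 of the genes, without Fgl2 and Plagl1, library 1 left of library 2 for each gene, with coding transcripts in blue and retained-intron transcripts in orange. The shares were close between libraries, with 71.2% and 74.3% in the coding transcript of Nrp1.

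Plagl1 was the exception, and its TPM hid the difference in counts. In library 1 its 186 counts were all assigned to coding transcripts, 170 of them to a transcript of 5260 bases and 16.4 to another that starts 30.3 kilobases upstream. In library 2 all 11 counts were assigned to transcripts that are not coding, 8.59 of them to a transcript of 478 bases. The mean transcript length that the authors' table gives for the gene was therefore 4063 bases in library 1 and 519 bases in library 2. A 13.4-fold difference in counts per library stood beside a 1.61-fold difference in TPM. The authors' posterior mean for Plagl1 was higher in both libraries, at 6.13 TPM in library 1 and 5.32 TPM in library 2. It also split the gene differently, so the assignment to transcripts is uncertain. The transcript of 5260 bases had 27.28% by posterior mean in library 1, against 70.24% of TPM. The transcript of 478 bases had 12.63% by posterior mean in library 2, against 85.48% of TPM. The coding transcripts had 2.79 TPM in library 1 and 0 counts in library 2, where 0 counts allow up to 3 counts, or 0.136 CPM. Of the 25 annotated transcripts of Plagl1, 20 had 0 counts in both libraries.

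Start sites were sharply set for Hopx. Its upstream start, used by Hopx-201 and 19.8 kilobases from the downstream one, had 0 counts in both libraries, against 2306 counts in library 1 and 2152 in library 2 for the 2 transcripts that start downstream. The bases before both starts are shown because they set the start with counts beside the start without, from the RefSeq promoter table (GRCm38.p6, the assembly of mm10), minus strand, 5′ to 3′, with CG dinucleotides in capitals.
Hopx upstream start, chr5:77115124-77115373: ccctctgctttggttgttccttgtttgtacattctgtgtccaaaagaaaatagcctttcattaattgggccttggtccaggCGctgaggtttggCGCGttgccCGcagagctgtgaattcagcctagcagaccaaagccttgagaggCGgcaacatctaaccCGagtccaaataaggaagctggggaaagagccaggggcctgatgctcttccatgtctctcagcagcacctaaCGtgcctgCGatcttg
Hopx downstream start, chr5:77095278-77095517: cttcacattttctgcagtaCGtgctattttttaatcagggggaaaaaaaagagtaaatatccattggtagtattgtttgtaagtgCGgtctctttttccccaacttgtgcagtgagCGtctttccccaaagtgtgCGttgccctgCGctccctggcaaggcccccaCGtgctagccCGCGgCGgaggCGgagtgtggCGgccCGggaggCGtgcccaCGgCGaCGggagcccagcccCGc
The 300-base window of the table around the upstream start held 8 CG dinucleotides and that around the downstream start held 21, against a median of 7 over 32851 promoter windows of mouse genes. The window of the start with counts was thus at the 75.2 percentile of CG content and that of the other at 51.4.

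RefSeq promoter windows were found for 7 of the 8 genes, 8 windows in all. Plagl1 had 26 CG dinucleotides (83.1 percentile), Gpr83 24 (80.0), Nrp1 14 (63.7), Fgl2 12 (60.4), Capg 7 (47.9) and Izumo1r 3 (23.3). The Capg window lies at a later start. Capg-201 and Capg-203 start within 200 bases of each other upstream of it. Together they took 93.6% of TPM in library 1 and 92.4% in library 2. The Nrp1 window lies at the start of a retained-intron transcript with 1.42% of TPM in library 1 and 0.655% in library 2. The coding transcript of Nrp1 starts downstream of that window. The RefSeq start of Izumo1r lies downstream of the start of Izumo1r-201, which took most of the gene's TPM. Both strands were searched for TTCNNNGAA (STAT factors, in 8.30% of all windows), TGACTCA (AP-1, 5.20%), TGTGGT (RUNX, 16.8%), TGTTTAC (forkhead, 3.65%), GGAAGT (ETS, 23.8%), TATAAA (13.6%) and TGACGTCA (1.79%). Fgl2 held TTCNNNGAA starting 36 bases and TGACTCA 16 bases before the RefSeq start. The annotated Fgl2 transcript starts upstream of that RefSeq start, so TGACTCA lies within the transcript and TTCNNNGAA overlaps its first bases. Izumo1r held TGTGGT at 127 bases before its RefSeq start, which is within the span of Izumo1r-201. Capg held GGAAGT at 212 bases before its RefSeq start and Gpr83 held TATAAA at the start itself. Such a match describes letters and is not a measured binding site.

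Penk was read mainly as the full coding transcript. Penk-201 (chromosome 4, 4133531 to 4138477, minus strand) had 4042 counts in library 1 and 1104 in library 2, and the shorter Penk-202 had 378 and 87.8. The enkephalin peptides are cut from the precursor, which repeats them. The coding part of Penk-201, 804 bases, held 7 in-frame copies of the 15 bases that spell an enkephalin, 6 ending in ATG (Met-enkephalin) and 1 in CTG (Leu-enkephalin). They are shown because they are the products the most variable abundant gene of the set encodes, read from the GENCODE M21 transcript, 5′ to 3′, with the last codon in capitals.
Penk copy 1: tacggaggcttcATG
Penk copy 2: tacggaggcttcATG
Penk copy 3: tatggcggcttcATG
Penk copy 4: tatgggggcttcATG
Penk copy 5: tacgggggcttcATG
Penk copy 6: tatgggggcttcCTG
Penk copy 7: tacgggggctttATG
The annotated coding part of Penk-202 held 3 of these copies. It runs to the last of that transcript's 721 bases, so this coding part may be incomplete. Penk-201 took 83.7% of the gene's TPM in library 1 and 85.8% in library 2, so the share of the transcript with 7 copies was similar in the 2 libraries while the level was 3.07-fold higher in library 1.

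Izumo1r reads came mostly from transcripts with the near 3′ end. The 3 transcripts that end there took 93.6% of TPM in library 1 and 93.3% in library 2. The 2 transcripts that run on toward Gpr83, Izumo1r-202 by 14.2 kilobases and Izumo1r-203 by 6.97, took 6.35% and 6.73%. In the large tables the difference of Izumo1r between the libraries was thus present in both classes. The near end had 450 TPM in library 1 and 319 TPM in library 2, and the distal ends had 30.5 and 23.0 TPM. The small tables showed no such difference for the gene (log2 ratio -0.0033).

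Genes that overlap the set had few counts. Hopxos, antisense to Hopx, had 68 counts in library 1 and 41 in library 2. Ccdc146, a gene on the opposite strand that contains Fgl2, had 6 and 18, A830012C17Rik, opposite to Penk, had 22 and 33, and Gm27741, opposite to Plagl1, had 0 in both. Mir1903 lies within Nrp1 on the same strand, and its row had 41 and 46 counts, which cannot be told apart from Nrp1 reads. Strand use in counting is not given in the sources used here.

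Of 28 other regulatory T cell genes, all were detected, 16 were called higher in library 1, 6 were called higher in library 2 and 6 were not called. Their median log2 ratio was 0.22. With TMM factors the calls were 20 toward library 1 and 5 toward library 2. The list was chosen with earlier results of these libraries known and is no independent evidence of a direction. Foxp3 had 3792 counts in library 1 and 2971 in library 2, a log2 ratio of 0.08 that was called in the large table and not in the small one. The most abundant genes of the list were Tnfrsf18 (GITR, 344 TPM in library 1 and 369 TPM in library 2), Il2rb (293 and 297 TPM), Tnfrsf4 (OX40, 312 and 233 TPM) and the Ikaros-family factor Ikzf2 (214 and 185 TPM). The mean of Izumo1r, 411 TPM, was above the means of these 4, though in library 2 its 342 TPM was below the 369 TPM of Tnfrsf18. The widest ratios were those of the phosphatase Dusp4 (18.6 and 5.53 TPM, log2 ratio of counts 1.76), the inhibitory receptor Klrg1 (8.52 and 27.5 TPM, -1.67) and the cytokine Il10 (5.21 and 2.05 TPM, 1.35), so Penk at 1.62 lay within their range.

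Genes known to be lower in regulatory than in conventional T cells moved less. Of 12 such genes, 11 were detected, 4 were called higher in library 1, 4 were called higher in library 2 and 4 were not called. Their median log2 ratio was -0.02. The balance depended on scaling, since TMM factors gave 7 toward library 1 and 2 toward library 2. Of all genes, 23.9% and 46.4% were called in these directions by totals, and 30.1% and 40.5% with TMM factors. Tcf7, a factor of resting and memory cells, had 1107 TPM in library 1 and 999 TPM in library 2, Igfbp4 had 447 and 376 TPM, Lef1 had 310 and 328 TPM and the chromatin organiser Satb1 had 301 and 320 TPM. The largest differences were -0.31 for Id3, -0.28 for the interleukin 7 receptor Il7r and 0.28 for Igfbp4. Il2 was the member not detected, with 8 and 7 counts.

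**Figure D5:**
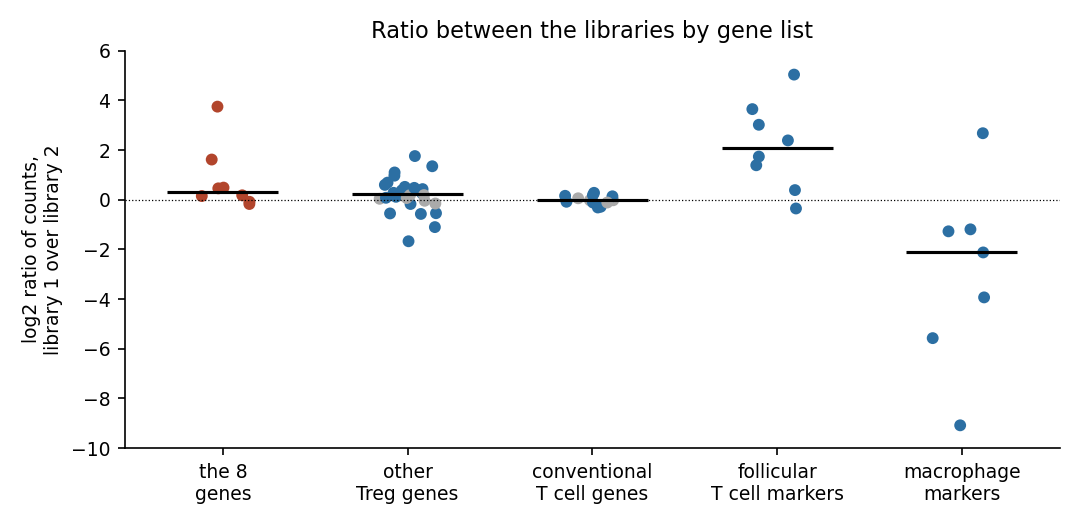
Log2 ratio of counts, library 1 over library 2, for the tested genes of 5 lists, with a bar at each list's median and genes not called in grey. The 8 genes have a median of 0.32, other regulatory T cell genes 0.22, conventional T cell genes -0.02, follicular T cell markers 2.07 and macrophage markers -2.12, and the lowest macrophage point, C1qc, has 0 counts in library 1, so its position depends on the 0.5 counts added.

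Partners of the 8 proteins were present to different degrees. Among 11 ligands and coreceptors of Nrp1, 6 were detected, 2 were called toward library 1 and 5 toward library 2. Sema4a, a semaphorin that binds Nrp1 on regulatory T cells in mice, had 132 TPM in library 1 and 185 TPM in library 2, and Tgfb1, which Nrp1 can also bind, had 130 and 104 TPM. Vegfb had 9.57 and 15.1 TPM and the signalling partner Plxna1 had 3.88 and 3.79 TPM. By counts Plxna1 was called higher in library 1, with 481 and 258 (log2 ratio 0.63), and its mean transcript length was 7527 and 5057 bases. Plxna4, another plexin, had 54 and 70 counts (log2 ratio -0.64). Of the gelsolin family beside Capg, Flii was the most abundant (128 and 145 TPM), then Svil (44.3 and 59.7 TPM) and Gsn (8.64 and 22.9 TPM), while Avil had 1 and 35 counts. By library totals 5 of the 6 family members were called toward library 2 and Flii was not called. Capg exceeded all of them in TPM in both libraries.

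The enkephalin receptors were near or below the edge of detection in these cells. Oprd1, the delta opioid receptor, had 1 count in library 1 and 4 in library 2, Oprk1 had 0 and 12, and Oprm1, the mu receptor, had 13 and 37, at 0.490 and 1.41 TPM. Of the enzymes that cut or trim the precursor, Cpe had 1.19 and 1.33 TPM, though its counts were 39 and 13 (log2 ratio 1.28). Ctsl had 11.4 and 8.19 TPM, Pcsk2 had 0 and 10 counts and Pcsk1 had 0 and 2. Pomc, another opioid precursor, had 1.95 and 1.51 TPM. Of the 8 genes of this list, 3 were detected, 1 was called toward library 1 and 3 toward library 2.

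The ligand precursor of Gpr83, Pcsk1n, had 0 counts in library 1 and 9 in library 2, while the glucocorticoid receptor Nr3c1 had 98.9 and 75.8 TPM and a log2 ratio of 0.36. The Fc receptors that bind Fgl2 were low, with Fcgr2b at 2.33 and 3.55 TPM and Fcgr3 at 2.13 and 3.27 TPM, and its relative Fgl1 at 3 and 26 counts. Of the relatives of Izumo1r, Folr1 had 0 and 6 counts and Folr2 had 4 and 1. Its ligand Izumo1 had 0 and 15, while Cd9, which works beside it on the egg, had 179 and 167 TPM. Plagl2, a close relative of Plagl1, had 22.1 TPM in library 1 and 13.6 TPM in library 2, with a log2 ratio of 0.72, and Plag1 had 0.780 and 1.32 TPM, with -1.66. Among imprinted genes Cdkn1c had 3.59 and 5.30 TPM, Grb10 had 1 and 13 counts, Dlk1 had 0 and 43, Igf2 had 3 and 1 and H19 had 0 and 2.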

How the data were processed

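Per the file headers and the deposited descriptions, the authors derived expected counts, TPM and FPKM per gene and per transcript from transcriptome alignments (mm10, GENCODE M21), with posterior means, posterior SDs and credibility bounds (each a score of precision), and each transcript's percent of its gene. The authors' small tables hold whole counts from mm10 alignments with GENCODE M4, per the deposited descriptions. Aligner, quantifier, strand use and duplicate removal: not given in the sources used here. Rows outside GENCODE (0.201% of counts in library 1 and 0.235% in library 2) were left out. Symbols, coordinates and transcript types came from GENCODE M21, and 22195 of 22457 small-table genes matched by identifier.

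Expected counts were rounded and compared with a 2-sided exact binomial test (scipy 1.17.1) against each library's share of the total, with Benjamini-Hochberg adjustment over genes with at least 10 counts and 0.05 as the threshold of the adjusted p. Each ratio puts library 1 over library 2, after adding 0.5 counts and dividing by the totals. Percentiles and shares are descriptions. Alternatives were TMM factors (edgeR 4.0.16), DESeq2 1.42.0 size factors, other thresholds, the small tables, posterior means and each library alone. The test was checked on simulated data. Genes, lists (18 with 141 distinct genes) and tests were chosen with earlier results of these data known. From each list up to 4 genes by mean TPM (3 for markers) and up to 3 by ratio were named, with genes at 0 counts in both libraries; any others named were picked once values had been seen. The libraries come from 1 biosample, so spread may be technical. Intervals cover counting error only, and may be too narrow because PCR copies are not independent molecules.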

Additional observations from a re-analysis of the deposited data

How the results depend on the processing

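Penk, Gpr83 and Plagl1 were called higher in library 1 with TMM factors, DESeq2 size factors, posterior mean counts and in the small tables. In the small tables the log2 ratio was -0.0033 for Izumo1r (no longer higher in library 1), 0.05 for Nrp1, 0.12 for Fgl2 and -0.20 for Hopx, none of them called, and the cause was not tested. With TMM factors Capg had 0.03 and Hopx -0.06, and with DESeq2 size factors 0.07 and -0.03, because these factors move every ratio toward library 1. The number of the 8 genes higher in library 1 was 6 by totals and 3 in the small tables, against 23.9% and 22.1% of all genes. The number higher in library 2 was 2 by totals, 0 with TMM factors, 0 with DESeq2 size factors and 1 in the small tables. Of all genes, 46.4%, 40.5%, 39.0% and 32.2% were called higher in library 2, in the same order. By totals, 37.6% of genes with at least 1000 counts were called toward library 1 and 35.0% toward library 2. The median log2 ratio of the 8 was 0.43 with TMM factors, 0.47 with DESeq2 size factors and 0.08 in the small tables. Of the conventional T cell genes 5 were called in the small tables, against 8 by totals. Of all genes, 54.3% and 70.3% were called. In FPKM the median level of the 8 was 85.8, against 138 in TPM, a change of unit. The most abundant transcript took a median of 91.9% by expected counts, against 87.0% by TPM. At a TPM of 5, 7 of the 8 were detected, without Plagl1. No paired analysis was possible because the 2 libraries form 1 group and no groups are compared. Plagl1 is limited by depth, with 11 and 1 counts in library 2.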
